A study of Mus musculus with 2 samples.

Results

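EGFP-bearing barcodes are hepatocyte-gate barcodes of mouse liver that carry at least 3 unique molecular identifiers (UMIs, 1 per captured RNA molecule) of EGFP, a fluorescent reporter sequence listed among the features. There were 364 of them among 5843 deposited barcodes, 36 in the library labelled scramble and 328 in that labelled shBicd2. They were compared, inside each library, with 2440 and 2033 barcodes of the same gate with 0 EGFP UMIs. The gate took in 2601 and 2838 barcodes, with at least 200 genes, at most 25% mitochondrial UMIs and 0 UMIs summed over Ptprc, Ptprb and Dcn, which mark leukocytes, endothelial cells and fibroblasts.

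Both libraries come from livers of wild-type C57BL/6J mice, with 1 library per group. Mice aged 4 weeks received an adeno-associated virus (AAV), either AAV-scramble or AAV-shBicd2, then 3 weeks later an intravenous dose of 15 mg/kg concanavalin A (ConA), and livers were taken 6 h after that. All barcodes of both groups therefore come from mice given AAV and ConA. The vector that brings EGFP, the promoters of the inserts and the number of mice per library are not stated in the labels. With 1 library per group, the contrast of EGFP-bearing with EGFP-free barcodes is made once in each library.

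ConA is a lectin that activates T cells and leads to an immune-mediated liver injury in mice, in which interferon gamma and tumour necrosis factor act on hepatocytes. AAV is a small DNA virus used to deliver genes to hepatocytes, where its genome must reach the nucleus before it is transcribed. Immediate early genes encode transcription factors that are switched on within minutes of a stimulus, and heat shock genes encode chaperones that hold or refold proteins.

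Bicd2, the dynein adaptor that AAV-shBicd2 is named for (chr13:49341585-49387026 in GRCm38, plus strand), was sparse. Levels are given as CPM, a gene's UMIs per 1000000 UMIs of its class after thinning to equal depth. EGFP-free barcodes labelled scramble held 31 UMIs, or 17.3 CPM, and those labelled shBicd2 35 UMIs, or 25.6 CPM, so its level does not check the labels. EGFP-bearing barcodes had 0 UMIs in the library labelled scramble, where the floor of 3 counts is 83.3 CPM and no fold is given. In that labelled shBicd2 they had 6 UMIs (19.2 CPM), a ratio to EGFP-free barcodes of 0.749 (0.257 to 1.80), which moved to 0.301 and 0.485 with 2 other thinning seeds and to 0.510 with thinning to 2000 UMIs. No difference in Bicd2 between the classes was detectable at this depth.

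The classes were chosen by EGFP, so its level is a description. EGFP-bearing barcodes held 3 to 16 EGFP UMIs, median 4, in the library labelled scramble, and 3 to 93, median 7, in that labelled shBicd2. They carried 51.1% and 87.7% of the EGFP UMIs of the gate. Just outside the threshold lay 35 and 103 barcodes with 2 EGFP UMIs, and just inside it 17 and 43 with 3.

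Barcodes with a Ptprc UMI (Ptprc barcodes) were set beside the gate for such shares. After thinning, 56.5% of them labelled scramble and 68.3% labelled shBicd2 held a UMI of Mat1a, a liver enzyme gene. They are therefore not free of hepatocyte RNA. Of the gate barcodes labelled scramble 1.38% (95% exact binomial interval 0.971% to 1.91%) had at least 3 EGFP UMIs. Of the Ptprc barcodes it was 1.29% (0.157% to 4.58%), from 2 of 155. The gate share did not lie above the Ptprc barcodes beyond counting error and is not read as expression. The gate labelled shBicd2 had 11.6% (10.4% to 12.8%) against 4.39% (1.44% to 9.94%). When EGFP UMIs were counted after thinning to 1000 UMIs, the shares were 0.207% against 1.09% in the first library and 9.61% (8.37% to 10.96%) against 6.67% (1.85% to 16.2%) in the second, where the intervals overlap. Shares labelled shBicd2 with at least 10 EGFP UMIs were 4.40% against 4.39%, and with at least 1 after thinning 24.2% against 23.3%, so neither lay above the Ptprc barcodes beyond counting error. Median depths were 1537 and 1537.5 UMIs in the gates and 1230 and 1080.5 in the Ptprc barcodes. Another reporter feature, GFP, had 0 UMIs in both libraries.

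**Figure D1:**
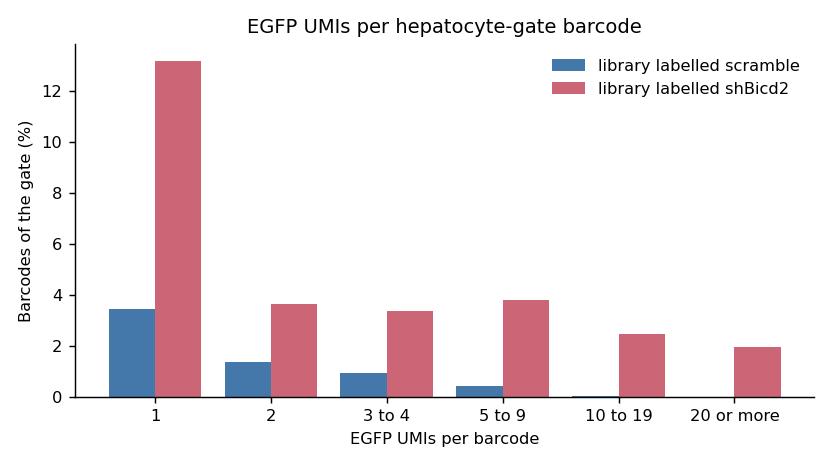
EGFP UMIs per barcode (x axis) against the percentage of all gate barcodes of each library (y axis, bars; barcodes with 0 are not drawn). The library labelled scramble had 1 barcode with 10 or more EGFP UMIs, and that labelled shBicd2 had 70 with 10 to 19 and 55 with 20 or more.

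EGFP-bearing barcodes were deeper and held fewer genes at equal depth. Their median depth was 3039 against 1500 UMIs in the library labelled scramble and 2582 against 1364 in that labelled shBicd2. Every barcode was therefore thinned to 1000 UMIs, and shallower ones were left out, which kept 36 against 1788 and 313 against 1367. After thinning, EGFP-bearing barcodes showed a median of 495.5 against 592 genes and 508 against 636 genes. Their 50 most abundant genes took 42.7% against 33.0% and 39.6% against 28.0% of UMIs. Median mitochondrial shares were 0.105% against 0.188% and 0.276% against 0.382%.

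The hepatocyte label was checked against 14 marker genes. Of these 12 were detected in the EGFP-bearing class labelled scramble, where Apoh and Hnf4a had 0 UMIs, and all 14 in that labelled shBicd2. Alb, which encodes albumin, stood at 583 against 1081 CPM and 1204 against 1821 CPM. The 14 markers summed to 10417 against 14448 CPM and to 12233 against 20072 CPM, so they were present and lower in the EGFP-bearing class of each library. Most genes were lower there: the median gene with enough UMIs stood at 0.814 and 0.617 of its EGFP-free level. Relative to that gene, the markers with enough UMIs had median log2 ratios of -0.34 and -0.11.

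Neutrophil and erythroid markers also summed lower in both libraries, and B cell and endothelial markers in that labelled shBicd2. Those of cholangiocytes, of monocytes and macrophages, and of T and NK cells did not sum lower in 1 library each. The 12 neutrophil markers summed to 944 against 1613 CPM and 1278 against 2873 CPM, with 7 and 3 of them at 0 in EGFP-bearing barcodes. The 9 erythroid markers summed to 167 against 347 and 240 against 503 CPM. The B cell, T and NK cell and endothelial markers were all at 0 in the EGFP-bearing class labelled scramble, against 23.5, 8.95 and 30.8 CPM. A 0 there has an upper bound of 102 CPM, above those levels, so it cannot show a lower level. Ptprb, an endothelial marker, is at 0 by the gate. In the library labelled shBicd2 the 3 lists summed to 22.4 against 51.2, 25.6 against 23.4 and 31.9 against 69.5 CPM. The 10 cholangiocyte markers summed to 55.6 against 63.2 CPM and to 102 (69.9 to 144) against 61.4 (49.0 to 76.1) CPM, and the 1 member with enough UMIs was at least 2-fold higher in the second library. Monocyte and macrophage markers summed to 83.3 against 20.7 CPM, from 3 UMIs, and to 63.9 against 80.5 CPM. The closing section describes counts with EGFP-free barcodes drawn to matched depth and with a stricter gate on markers of other cells. The part that depth and RNA of other cells have in the differences below was itself not tested.

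All genes were compared by the ratio of their CPM in EGFP-bearing over EGFP-free barcodes, with a 95% interval for counting error only. A gene is called at a 2-fold ratio and without a p-value, since barcodes of 1 library are not replicates. Of 1070 genes with enough UMIs in the library labelled scramble, 116 were at least 2-fold higher (10.8%) and 294 at least 2-fold lower (27.5%). Of 6964 in that labelled shBicd2, 445 were higher (6.39%) and 2840 lower (40.8%). The median gene itself had a log2 ratio of -0.30 and -0.70. Relative to the median gene, a scaling that itself balances the calls, there were 171 higher (16%) and 165 lower (15.4%) in the first library and 1167 (16.8%) and 1136 (16.3%) in the second.

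Of the 1070 genes that could be compared in both libraries, 81 were at least 2-fold higher in each (7.57%) and 192 at least 2-fold lower in each (17.9%). Relative to the median gene the counts were 140 (13.1%) and 59 (5.51%). The median gene labelled shBicd2 is that of all 6964 genes, at a log2 ratio of -0.70, while these 1070 have a median of -0.45 there. That reference itself tilts the 2 counts towards higher. In all, 870 of the 1070 lay on the same side of 1. For all 81 higher genes and for 121 of the 192 lower genes both counting intervals left out 1. Among genes past 2-fold in the library labelled scramble, 69.8% of the higher and 65.3% of the lower ones were past it the same way in the other, and in reverse the shares were 65.9% and 62.7%. Lpar6, a receptor for lysophosphatidic acid, was 1 of 2 genes past 2-fold in opposite ways, at 0.349 (0.0420 to 1.27) and 2.26 (1.53 to 3.29), but rests on 2 UMIs in the EGFP-bearing class labelled scramble, where the interval held 1 and the direction changed with the thinning seed.

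**Figure D2:**
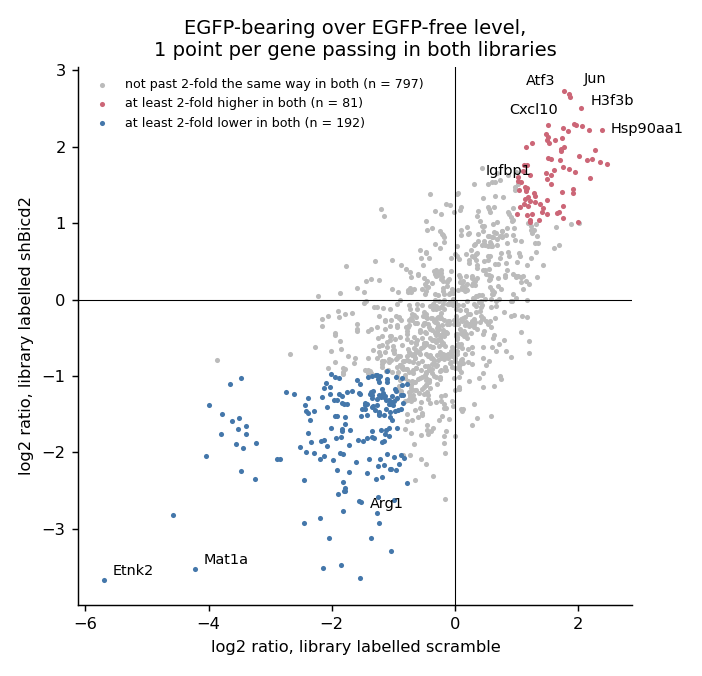
Log2 ratio of EGFP-bearing over EGFP-free level in the library labelled scramble (x axis) and in that labelled shBicd2 (y axis), 1 point per gene passing in both, with 0.5 added to each count. The 81 genes at least 2-fold higher in both lie at the upper right and the 192 at least 2-fold lower in both at the lower left.

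A fit over the 4 class sums with library as a block (edgeR's quasi-likelihood test, Benjamini-Hochberg adjustment) called 562 of the 1070 genes at an adjusted p under 0.05, 179 higher (16.7%) and 383 lower (35.8%). These included all 81 agreeing higher genes and 190 of the 192 agreeing lower genes. The fit has 1 residual degree of freedom and took the spread of each gene wholly from what is shared over genes. A gene's own difference between the libraries therefore did not enter the spread behind its p-value. The smallest edgeR adjusted p was 1.31e-28. It was 2.94e-09 with library sizes summed over the genes tested and 0.0273 without the library block. The p-values quoted for single genes depend on this choice and rest on this pair of libraries only. With TMM scaling factors 248 higher and 179 lower genes were called, and DESeq2 called 170 and 45. The 81 agreeing higher genes were called by all 3. Of the agreeing lower genes 149 were called with TMM and 43 by DESeq2, which gave no adjusted p for 353 genes, 111 of the agreeing lower ones among them.

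Immediate early genes were higher in EGFP-bearing barcodes of both libraries. All 11 list members with enough UMIs in the library labelled scramble and 13 of 15 in that labelled shBicd2 were at least 2-fold higher, 10 of them in both, and none was at least 2-fold lower, where 10.8% and 6.39% of all genes were higher. Their median log2 ratio relative to the median gene was 2.03 and 2.54.

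Jun, a subunit of the AP-1 transcription factor (chr4:95049034-95052222, minus strand, 1 exon), stood at 2694 against 743 CPM in the library labelled scramble, a ratio of 3.63 (2.92 to 4.46). In that labelled shBicd2 it stood at 4054 against 647 CPM, a ratio of 6.26 (5.74 to 6.83), with an edgeR adjusted p = 4.49e-16 over both libraries. A Jun UMI was present in 94.4% against 36.7% of barcodes and in 91.1% against 32.8%, so it was found in most EGFP-bearing barcodes. Barcodes with a Ptprc UMI had one in 35.9% and 35.0%, close to the EGFP-free class.

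Atf3, a stress-induced transcription factor, had ratios of 3.54 (2.18 to 5.45) and 6.44 (5.56 to 7.46). Egr1, a zinc finger transcription factor, had 4.64 (3.50 to 6.05) and 3.58 (3.14 to 4.08), and Klf6, also a zinc finger factor, 5.14 (4.22 to 6.20) and 3.49 (3.15 to 3.85). Zfp36, which destabilises cytokine mRNAs, had 2.80 (2.38 to 3.27) and 4.47 (4.15 to 4.82). All of these intervals lay above 2. The further AP-1 subunits Junb and Jund had 3.62 (3.13 to 4.16) and 3.26 (3.08 to 3.46) and 3.28 (2.60 to 4.10) and 3.84 (3.57 to 4.13).

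Histone RNAs were higher too. H3f3b, which encodes the replacement histone H3.3 and is expressed outside S phase (chr11:116021912-116027962, minus strand), stood at 18417 against 4441 CPM, a ratio of 4.15 (3.83 to 4.49), and at 22051 against 3892 CPM, a ratio of 5.67 (5.47 to 5.87) (edgeR adjusted p = 2.74e-14). An H3f3b UMI was found in all 36 EGFP-bearing barcodes labelled scramble and in 312 of 313 labelled shBicd2, against 79.2% and 83.1% of EGFP-free ones and 73.9% and 86.7% of Ptprc barcodes.

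The clustered histone genes encode core and linker histones made mainly in S phase, and this list was added after their values were seen. All 24 with enough UMIs in the library labelled shBicd2 were at least 2-fold higher, against 6.39% of all genes there, and none had enough in that labelled scramble. Summed over the list, EGFP-bearing barcodes held 4500 CPM (3834 to 5249) against 977 (931 to 1023) and 8642 CPM (8320 to 8974) against 1283 (1224 to 1345), so the sum was higher in both. Hist1h1e, a linker histone, had ratios of 4.18 (2.39 to 6.86) and 7.84 (6.72 to 9.16), and Hist1h4c, a histone H4 gene, 4.56 (2.73 to 7.21) and 7.02 (5.59 to 8.85). These genes resemble each other, and their reads may be split among them. Wee1, a kinase that holds back entry into mitosis, had a ratio of 8.19 (4.32 to 16.1) from 30 EGFP-bearing UMIs labelled shBicd2, and 2 UMIs in the other library. The rule for enough UMIs uses the sum of both classes, so a gene high in EGFP-bearing barcodes can pass through that class. Wee1 would not have passed at its EGFP-free level in both classes, so its ratio is a description only.

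**Figure D3:**
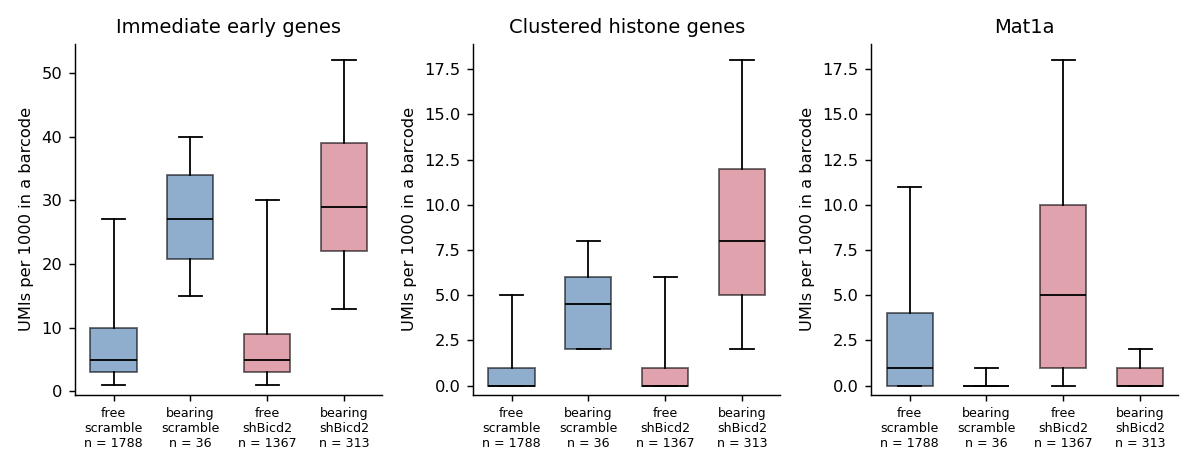
UMIs per 1000 in single barcodes (y axis) for EGFP-free and EGFP-bearing barcodes of each library (x axis), for immediate early genes, clustered histone genes and Mat1a. Boxes span the quartiles with the median as a line, and whiskers the 5th to 95th percentile; immediate early medians are 27 against 5 and 29 against 5.

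Single barcodes of the classes overlapped. Of EGFP-free barcodes 4.53% and 5.12% lay above the EGFP-bearing median of immediate early UMIs, and 6.99% and 2.85% above that of clustered histone UMIs. Barcodes at or above the lower EGFP-bearing quartile in both sums made up 69.4% and 62.0% of EGFP-bearing barcodes, against 8.39% and 4.90% of EGFP-free ones. The latter are 150 and 67 barcodes with no EGFP UMI, more than the 25 EGFP-bearing ones in the library labelled scramble and fewer than the 194 in the other.

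Heat shock genes were higher in part and less evenly over barcodes. Both members with enough UMIs in the library labelled scramble, Hspa8 and Hsp90aa1, and 9 of 20 in that labelled shBicd2 were at least 2-fold higher, and 3 of the 20 were at least 2-fold lower. Of all genes 10.8% and 6.39% were at least 2-fold higher, and 40.8% labelled shBicd2 were at least 2-fold lower. Hsp90aa1, the inducible HSP90 chaperone, stood at 972 against 187 CPM, a ratio of 5.19 (3.55 to 7.36), and at 2029 against 435 CPM, a ratio of 4.67 (4.17 to 5.23) (edgeR adjusted p = 1.13e-14). Its 35 UMIs in the library labelled scramble came from 9 of 36 barcodes, 10 of them from 1 barcode, and its direction there turned in a stricter gate, at most 1 UMI summed over blood, immune, endothelial and stellate cell markers, that kept 11 EGFP-bearing barcodes. Of EGFP-free barcodes 37.2% and 19.8% lay above the EGFP-bearing median of the summed list.

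Hspa1b, an inducible HSP70 chaperone (chr17:34956436-34959238, minus strand, 1 exon), missed the filter in the library labelled scramble, where it had 37 UMIs in 8 of 36 barcodes, 13 of them in 1 barcode, and a ratio of 8.63 (5.91 to 12.3). In that labelled shBicd2 it stood at 1665 against 255 CPM, a ratio of 6.52 (5.68 to 7.49), with a UMI in 40.9% against 10.2% of barcodes and in 15% of Ptprc barcodes. Its near-identical neighbour Hspa1a had 0 EGFP-bearing UMIs in the first library and a ratio of 7.73 (5.77 to 10.4) in the second, and reads of the pair may be split between them. Dnaja1, a co-chaperone of HSP70, had a ratio of 0.628 (0.377 to 0.996) in the library labelled shBicd2, below 1.

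Promoters of 4 genes are printed to show where the letters of a heat shock element (Hspa1b) and an interferon element (Cxcl10, Isg15, Ifit1) stand. They are RefSeq sequences of GRCm38.p6, from 250 bases before to 50 after the start, read 5′ to 3′ on the gene's strand, with the matches in capitals. They lie at chr17:34959189-34959488 (Hspa1b, minus strand), chr5:92348840-92349139 (Cxcl10, minus), chr4:156200769-156201068 (Isg15, minus) and chr19:34640639-34640938 (Ifit1, plus).
Hspa1b: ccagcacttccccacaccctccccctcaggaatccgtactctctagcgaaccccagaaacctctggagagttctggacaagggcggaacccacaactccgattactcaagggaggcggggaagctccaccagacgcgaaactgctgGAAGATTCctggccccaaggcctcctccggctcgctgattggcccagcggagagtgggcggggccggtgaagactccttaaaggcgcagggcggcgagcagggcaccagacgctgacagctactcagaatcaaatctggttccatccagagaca
Cxcl10: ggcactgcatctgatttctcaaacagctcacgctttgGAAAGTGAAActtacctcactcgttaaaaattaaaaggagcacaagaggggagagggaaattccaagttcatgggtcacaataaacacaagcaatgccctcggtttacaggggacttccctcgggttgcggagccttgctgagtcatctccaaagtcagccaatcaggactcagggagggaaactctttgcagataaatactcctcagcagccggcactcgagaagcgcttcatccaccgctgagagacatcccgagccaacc
Isg15: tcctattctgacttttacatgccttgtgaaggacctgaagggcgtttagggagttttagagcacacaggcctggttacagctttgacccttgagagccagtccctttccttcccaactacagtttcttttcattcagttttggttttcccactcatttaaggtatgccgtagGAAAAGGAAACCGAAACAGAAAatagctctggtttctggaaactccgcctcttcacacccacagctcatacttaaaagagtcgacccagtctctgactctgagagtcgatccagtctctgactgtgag
Ifit1: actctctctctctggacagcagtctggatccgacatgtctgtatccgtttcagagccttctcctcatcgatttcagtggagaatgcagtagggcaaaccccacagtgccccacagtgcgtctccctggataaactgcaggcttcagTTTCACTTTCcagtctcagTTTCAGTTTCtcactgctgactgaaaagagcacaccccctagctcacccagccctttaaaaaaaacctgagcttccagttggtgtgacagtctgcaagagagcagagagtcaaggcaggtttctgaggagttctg
The heat shock letters were GAANNTTC and the interferon letters GAAA and GAAA with any 2 bases between them, searched on both strands with overlaps allowed. Hspa1b and Cxcl10 hold 1 match each, Isg15 3 and Ifit1 2. Over the same window the Hspa1a promoter differs from that of Hspa1b at 4 of 300 bases.

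Of the 9 heat shock genes at least 2-fold higher in the library labelled shBicd2, 7 were matched to a promoter, and 5 of these held GAANNTTC (71.4%), against 7.95% of 27025 promoters. A longer form, with GAA following after 2 further bases, was searched later and stood in 2 of the 7 (28.6%) against 0.529%. Of the 8 type I interferon and 7 interferon gamma genes that were higher there, 6 and 4 were matched to a promoter. The interferon letters stood in 4 and 3 of these, against 3.49% of all promoters. Among the agreeing higher genes 12.5% of 64 promoters held them, against 5.46% of the 843 promoters of genes passing in both. The heat shock letters stood in 3 of those 64 (4.69%), against 5.22% of the 843, and the longer form in 0 of the 64. Ifit2 had no interferon match in its window. These matches describe letters only. The heat shock and interferon lists were made of genes of those responses, and members that were not higher were not searched as sets. Shares within the lists therefore say nothing on the EGFP classes.

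Interferon and NF-kB target genes were higher in part. Of the type I interferon list 4 of 9 members were at least 2-fold higher in the library labelled scramble and 8 of 17 in the other, of the interferon gamma list 8 of 14 and 7 of 23, and of the NF-kB list 6 of 13 and 8 of 18. At most 1 member of each was at least 2-fold lower in a library. Over all genes 10.8% and 6.39% were at least 2-fold higher.

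Cxcl10, a chemokine that draws T cells, stood at 6028 against 1568 CPM, a ratio of 3.84 (3.33 to 4.41), and at 4323 against 884 CPM, a ratio of 4.89 (4.52 to 5.29) (edgeR adjusted p = 1.13e-14). A Cxcl10 UMI was found in 80.6% against 37.6% and 76.7% against 32.7% of barcodes, and in 47.8% and 45% of Ptprc barcodes. Ifit2, an interferon-induced antiviral protein, had ratios of 3.31 (1.86 to 5.49) and 6.65 (4.52 to 9.86), the first of which turned below 1 in barcodes with at least 5 EGFP UMIs. Its relative Ifit1 had 2.83 (1.71 to 4.44) and 4.15 (2.99 to 5.75). Isg15, a ubiquitin-like protein, had 3.30 (2.09 to 4.99) and 2.10 (1.56 to 2.80), and Irf1, a transcription factor of the interferon response, 3.08 (2.41 to 3.89) and 4.23 (3.86 to 4.64). Not every member differed: Usp18, which restrains interferon signalling, had 1.48 (0.820 to 2.46) and 1.08 (0.717 to 1.58), and both intervals held 1.

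Among NF-kB targets, Cxcl2, a neutrophil chemokine, had ratios of 4.54 (3.49 to 5.82) and 3.00 (2.71 to 3.31). Nfkbia, the inhibitor of NF-kB that NF-kB itself induces, had 2.01 (1.44 to 2.72) and 3.05 (2.73 to 3.40). Sod2, the mitochondrial superoxide dismutase, had 1.18 (0.683 to 1.90) and 0.555 (0.430 to 0.708), so members of this list did not move alike.

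Agreeing higher genes outside these lists had many roles. Btg1, an antiproliferative gene, had ratios of 4.14 (2.99 to 5.60) and 4.84 (4.31 to 5.45), and Rhob, a small GTPase, 3.36 (2.45 to 4.50) and 4.72 (4.18 to 5.34). Igfbp1, a secreted binder of insulin-like growth factors, had 3.06 (2.73 to 3.43) and 3.24 (3.07 to 3.41), and Mt1, a metallothionein, 2.33 (2.13 to 2.54) and 2.05 (1.98 to 2.12). Gm42418, a noncoding locus chosen after its values were seen, took 43222 against 19364 CPM and 65530 against 16391 CPM, ratios of 2.23 (2.12 to 2.35) and 4.00 (3.92 to 4.07).

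Among the lowest agreeing genes were enzymes of methyl, phospholipid and heme metabolism. Mat1a, the liver methionine adenosyltransferase that makes S-adenosylmethionine (chr14:41105035-41124412, plus strand), stood at 139 against 2856 CPM, 20.6-fold lower (ratio 0.0486 (0.0158 to 0.114)), and at 553 against 6388 CPM, 11.6-fold lower (ratio 0.0865 (0.0740 to 0.101); edgeR adjusted p = 1.31e-28). A Mat1a UMI was found in 11.1% against 61.4% of barcodes and in 33.5% against 79.5%. Ptprc barcodes had one in 56.5% and 68.3%, between the classes in each library. The source of those UMIs was not tested, and no share here is read as a share of expressing cells.

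Etnk2, an ethanolamine kinase, had 0 UMIs against 725 CPM in the library labelled scramble, at least 8.70-fold lower with a floor of 3 counts over the class, and 25.6 against 346 CPM, 13.5-fold lower, in the other. Nnmt, which methylates nicotinamide, was at least 2.74-fold lower and 4.23-fold lower. Alas1, which starts heme synthesis, had ratios of 0.0570 (0.00144 to 0.319) and 0.265 (0.174 to 0.389), the first from 1 EGFP-bearing UMI. Among the 192 agreeing lower genes 15 had 0 UMIs in the EGFP-bearing class labelled scramble.

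Urea cycle genes were at least 2-fold lower for 2 of 4 members in the library labelled scramble and 5 of 8 in the other, where 27.5% and 40.8% of all genes were, and none was at least 2-fold higher. Arg1, which splits arginine into urea and ornithine, stood at 194 against 597 CPM, a ratio of 0.326 (0.131 to 0.673), and at 192 against 1214 CPM, a ratio of 0.158 (0.120 to 0.204) (edgeR adjusted p = 3.28e-12). Cps1, the first enzyme of the cycle, had 0.393 (0.0807 to 1.16) and 0.294 (0.226 to 0.378). The list median lay at log2 ratios of -0.54 and -0.59 relative to the median gene.

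Endoplasmic reticulum stress genes were at least 2-fold lower for 3 of 10 members in the library labelled scramble, near the 27.5% of all genes, and for 11 of 18 in the other, against 40.8%, with none higher and list medians of -0.19 and -0.60 relative to the median gene. Calr, a lumenal calcium-binding chaperone, had ratios of 0.423 (0.115 to 1.09) and 0.285 (0.193 to 0.408), the first of which turned above 1 in barcodes with at least 5 EGFP UMIs. Hspa5, the lumenal HSP70, had 1.12 (0.764 to 1.59) and 0.812 (0.715 to 0.919), near 1 in both. Of 52 secretory pathway genes, a list added after the values were seen, 15 of 17 and 28 of 45 with enough UMIs were at least 2-fold lower, 13 of them in both, with medians of -1.16 and -0.43. Preb, which helps to build COPII vesicle coats, had 0.298 (0.0809 to 0.766) and 0.275 (0.189 to 0.390).

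Acute phase genes were at least 2-fold lower for 4 of 20 and 8 of 22 members, shares near or below those of all genes, and their medians lay at -0.02 and 0.06 relative to the median gene. Fgb, a fibrinogen chain, had ratios of 0.436 (0.332 to 0.564) and 0.443 (0.407 to 0.481). The 8 mitochondrial-encoded genes with enough UMIs in the library labelled scramble were at least 2-fold lower for 6 members, above the 27.5% of all genes, and the 11 in the other for 2, below its 40.8%. Hypoxia and glycolysis genes were at least 2-fold higher for 2 of 7 and 5 of 16 members, with none lower, and MHC class I genes for 0 of 6 and 2 of 15. Of all genes 10.8% and 6.39% were at least 2-fold higher.

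Sterol and fatty acid synthesis genes could be compared mostly in the library labelled shBicd2, where 12 of 21 were at least 2-fold lower and 2 higher. Of all genes there 40.8% were at least 2-fold lower and 6.39% higher, and the list median lay at a log2 ratio of -0.49 relative to the median gene. Hmgcs1, an early enzyme of cholesterol synthesis, had a ratio of 0.217 (0.140 to 0.321) there. Scd1, a fatty acid desaturase, went the other way in both, at 2.03 (1.36 to 2.92) and 2.69 (2.26 to 3.19). The 3 measured noncoding RNAs of the imprinted Dlk1-Dio3 locus were all at least 2-fold lower in the library labelled shBicd2, with Meg3 at 0.0801 (0.0456 to 0.131), and none had enough UMIs in the other.

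Barcodes with 1 or 2 EGFP UMIs, in neither class, lay between them in summed immediate early, clustered histone and heat shock genes and in Mat1a. Not every sum did. Erythroid markers labelled scramble stood at 347 CPM with 0 EGFP UMIs, 159 with 1 or 2 and 167 in EGFP-bearing barcodes. Summed immediate early genes in the library labelled shBicd2 stood at 8172 CPM in barcodes with 0 EGFP UMIs, 15690 with 1 or 2, 29284 with 3 to 9 and 32748 with 10 or more. Over the same steps the clustered histone genes stood at 1283, 3297, 7689 and 10114 CPM and the heat shock genes at 1864, 2940, 5189 and 8033 CPM. Mat1a went the other way, at 6388, 4323, 632 and 431 CPM. Barcodes labelled scramble with 1 or 2 EGFP UMIs held 19953 CPM of immediate early genes and 766 CPM of Mat1a, also between the classes. Atf3 did not follow this order there, at 173 CPM with 0 EGFP UMIs, 794 with 1 or 2 and 629 with 3 to 9. Directly at the threshold in the library labelled shBicd2, Mat1a stood at 2196 CPM in 92 barcodes with 2 EGFP UMIs and at 300 CPM in 40 barcodes with 3. The heat shock genes did not step up there, at 3196 and 2650 CPM, and in the library labelled scramble they stood at 3094 CPM in 32 barcodes with 2 and 1059 CPM in 17 with 3.

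**Figure D4:**
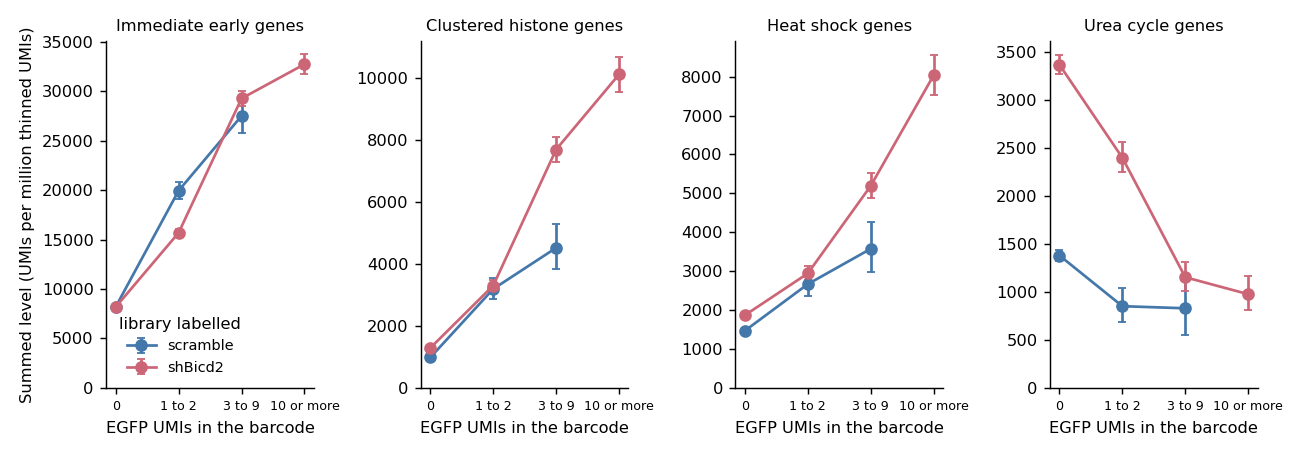
Summed level of immediate early, clustered histone, heat shock and urea cycle genes (y axis, CPM of thinned UMIs) by the number of EGFP UMIs in a barcode (x axis), with exact Poisson 95% intervals for counting error only. Immediate early genes lie at 8172 CPM with 0 EGFP UMIs and 32748 CPM with 10 or more in the library labelled shBicd2, and the single barcode with 10 or more in the other library is not drawn.

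Higher genes had fewer exons. The 81 agreeing higher genes had a median of 4 annotated exons and a span of 8361 bases, the 192 agreeing lower genes 13 exons and 27876 bases, and all 1070 genes 11 exons and 29062 bases (GENCODE annotation of GRCm38). Of the agreeing higher genes 13.6% had a single exon, against 1.04% of the agreeing lower genes and 2.90% of all. In the library labelled shBicd2 35.8% of 187 single-exon genes were at least 2-fold higher, 12.6% of those with 2 to 5 exons, 4.79% with 6 to 10 and 2.66% with 11 or more. Without the clustered histone genes it was 27.7% of 166 single-exon genes. The same order held in the library labelled scramble, at 35.5%, 21.9%, 11.97% and 4.36%. Whether intronic reads were counted is not stated, and its part in this order was not tested.

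**Figure D5:**
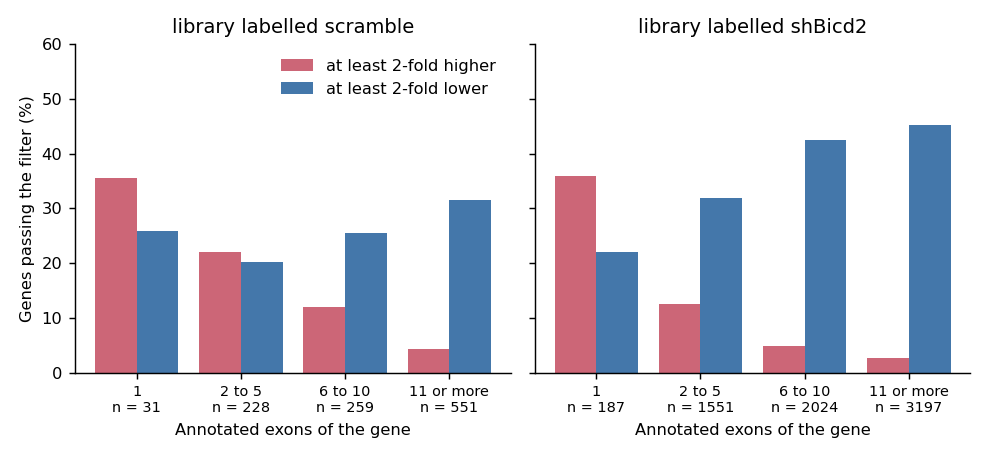
Percentage of genes passing the filter (y axis) that were at least 2-fold higher or lower in EGFP-bearing barcodes, by annotated exon number (x axis), in each library. The higher share is 35.8% for single-exon genes and 2.66% for genes with 11 or more exons in the library labelled shBicd2.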

How the data were processed

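RNA of single liver barcodes was profiled in 2 libraries with 10x Genomics 3' chemistry, version 3.1 per the labels' protocols. The authors deposited raw UMI counts for each gene, 5086306 and 5624055 in total over 2805 and 3038 barcodes, from Cell Ranger 6.1.2 per the file headers. The submitters' processing notes list Cell Ranger 6.0.1 together with Seurat 4.0.3, and mm10. Intron counting and doublet removal are not stated. The libraries share 3 barcodes (0.107% of the smaller one).

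Filters on genes and mitochondrial share kept 2791 and 3014 barcodes. Gate barcodes were thinned to 1000 UMIs (seed 1) and summed per class with Python 3.11.15, numpy 2.4.6 and scipy 1.17.1. A gene passed in a library with an expected count of at least 5 in each class. Ratios carry exact conditional binomial 95% intervals for counting error only, which are too narrow where UMIs cluster in few barcodes. A class at 0 is set against a floor of 3 counts. The 4 sums were fitted with edgeR 4.0.16 (library block, no scaling factor, library sizes over all genes, at least 20 UMIs) and DESeq2 1.42.0. The ratios and the edgeR fit were run on simulated class sums with counting error only and the same changes in both libraries. Those sums hold no clustering of UMIs in barcodes and no spread between libraries. They therefore cannot show how the intervals and p-values hold in these data. Library sizes were at first summed over the genes tested only and changed after those counts were seen, and the longer heat shock motif was also added later. Named genes are EGFP, Bicd2, the 10 highest and 10 lowest ratios of each library, the 15 highest and 15 lowest agreeing genes, genes past 2-fold in opposite ways, the 10 lowest adjusted p-values, the 6 most abundant members of each list and its agreeing members. The genes flagged in the closing section, Lpar6 and Gm42418 were added after their values were seen, and some genes that the rule names are not reported here. Members, lists and rule were chosen with earlier results of these data known. Alternatives include doublet removal with Scrublet (scanpy 1.11.5).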

Additional observations from a re-analysis of the deposited data

Results flagged for a closer look

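For 6 genes the ratio of EGFP-bearing over EGFP-free level lay on opposite sides of 1 in the 2 libraries, with both counting intervals leaving out 1, and the difference between the libraries was not tested. Gm26917, a noncoding locus, had 0.732 in the library labelled scramble and 1.88 in the library labelled shBicd2, and log2 ratios of -0.15 and 1.61 relative to the median gene. The other 5 went the opposite way. The acute phase genes Saa1 and Saa2, near-identical copies whose reads may be split between them, had 1.38 and 1.16 in the library labelled scramble and 0.733 and 0.566 in the library labelled shBicd2. Relative to the median gene Saa1 lay at log2 ratios of 0.76 and 0.25, on the same side in both, and Saa2 at 0.52 and -0.12. Nfkb1, a subunit of NF-kB, had 2.21 and 0.68, Insig1, a regulator of sterol sensing, 2.21 and 0.611, and Dcaf8 1.75 and 0.623. Relative to the median gene Nfkb1, Insig1 and Dcaf8 lay at log2 ratios of 0.15, -0.0033 and 0.021 in the library labelled shBicd2. In the library labelled scramble Nfkb1 and Insig1 rest on 11 and 12 UMIs.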

How the results depend on the processing

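Counts of genes past 2-fold depend on depth and on the filter. In this order, higher and lower in the library labelled scramble, higher and lower in the library labelled shBicd2, and higher and lower in both, the counts given above are 116, 294, 445, 2840, 81 and 192. Those that moved by over 1.5 times are as follows. Without thinning they were 204 and 1120, 4290 lower, and 146 and 733. Thinning to 500 UMIs gave 55 and 121 in the library labelled scramble and 41 and 76 in both; thinning to 2000 gave 481 lower and 294 lower in both. An expected count of at least 2 gave 236 and 1070, and 130 and 614; of at least 10 it gave 65 and 107, 1758 lower, and 50 and 76. A class of at least 1 EGFP UMI gave 183 and 956, and 1650 lower; at least 5 gave 40 and 59, and 31 and 28. The stricter gate, which kept 11 against 369 and 44 against 104 barcodes, gave 39 and 50, 179 and 358, and 25 and 24. Centring on the median ratio, chosen after seeing the data, gave 165 lower, 1167 and 1136, and 140 and 59. The cause was not tested.

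The fit with library as a block called 179 higher and 383 lower genes. TMM factors gave 179 lower, DESeq2 45 lower, no filter 357 and 705, unthinned sums 395 and 1639, and no library block 51 and 79. With library sizes over the genes tested, the setting first used and replaced after its counts were seen, it called 138 and 458. Lists with a median above the median gene in both libraries, among those with at least 3 members passing in each, numbered 10, 16 without thinning and 6 with the stricter gate. The share of EGFP-bearing barcodes was 6.19% and 28.4% with at least 1 EGFP UMI, and 0.207% and 9.61% with at least 3 after thinning, a setting chosen after seeing the data. Removing Scrublet doublets, drawing EGFP-free barcodes to matched depth, 5 other seeds, mitochondrial UMIs of at most 1% and taking EGFP out before thinning moved none of these counts by over 1.5 times. No paired analysis was possible because each group has 1 library, as far as the virus groups are concerned; the EGFP classes were paired by the library block. The Bicd2 ratio of 0.749 ranged from 0.301 to 0.876 over these settings. The number of EGFP-bearing barcodes, 36 in the library labelled scramble, limits which genes could be compared there.

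Among named genes past 2-fold in the main comparison, directions turned for 4, all in the library labelled scramble, as log2 ratios. Named genes short of 2-fold were not screened for a turn. Lpar6 went to 0.41 with thinning to 500 UMIs, 0.20 without thinning and 0.62 and 0.53 with 2 other seeds. Barcodes with at least 5 EGFP UMIs gave 0.15 for Calr and -0.11 for Ifit2, and the stricter gate gave -0.40 for Hsp90aa1.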
